A study of Rattus norvegicus with 56 samples.

Results

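The MHC class II genes were followed across the hippocampus and the parietal cortex of 24 male Long-Evans rats. The members were 6 genes fixed by name, namely Cd74, RT1-Da, RT1-Ba, RT1-Bb, RT1-Db1 and Ciita. They were chosen with earlier results of these data known. Their probes were found by matching each array probe's RefSeq accession to the gene symbol, which gave 7 probes of the 45598 on the array. Ciita had 2 probes and the others 1 each, out of 16581 genes named by the same match. The rats were young (6 to 7 months) or aged (26 to 27 months), and the aged rats were labelled as unimpaired (AU) or impaired (AI). The study's methods base these terms on a water maze test of spatial memory, which they describe for the rats of its hippocampal slice experiment. For the present experiment the methods also count fewer rats than the labels give. Each group received either intermittent theta burst stimulation (iTBS), in which a coil over the head gives trains of short magnetic pulse bursts, or sham stimulation given with the coil held at a distance from the head. All rats, sham included, were lightly anesthetized with isoflurane, sedated with dexmedetomidine at a dose per body weight set by age, and given its antagonist afterwards. The tissue under the centre of the coil was taken 48 h later. The groups were Y_Sham (4 rats), Y_iTBS (4), AU_Sham (4), AU_iTBS (5), AI_Sham (4) and AI_iTBS (3), each with both regions of the same animals, and AI_iTBS rested on the fewest animals. Both regions were bulk tissue, in which more cells of one type and more RNA per cell cannot be told apart.

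MHC class II molecules present peptides from the endosomal pathway to CD4+ T cells. Each is a pair of an alpha and a beta chain, and the rat carries the RT1-D pair (alpha RT1-Da, beta RT1-Db1) and the RT1-B pair (alpha RT1-Ba, beta RT1-Bb). Cd74, the invariant chain, fills the peptide groove during assembly and carries the dimer to endosomes, where RT1-DMa and RT1-DMb help to exchange its last fragment for peptide. Ciita is the transactivator of these genes. It does not bind DNA itself but docks on factors bound at the X and Y boxes of class II promoters, among them the RFX complex and NF-Y, which reads the sequence CCAAT. In brain, class II is known mainly from microglia and from macrophages at the borders, around vessels and in the choroid plexus.

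The start-site regions are printed for Cd74, RT1-Da and RT1-Db1, on which the results turn, and for RT1-Bb, the beta chain of the other pair, to set beside them. Each is 300 bases of RefSeq sequence on build GRCr8, 5′ to 3′ on the gene's strand, from 250 bases before to 50 after the annotated start. Capitals mark CCAAT on either strand (ATTGG when read from the other strand) and CTAGNAAC, a stretch taken here as part of the X box. Both motifs were chosen after the sequences and the levels had been seen. Cd74 lies at chr18:56526956-56527255 on the plus strand, RT1-Da at chr20:4515165-4515464 on the plus strand, RT1-Db1 at chr20:4560113-4560412 on the minus strand and RT1-Bb at chr20:4604069-4604368 on the minus strand.
Cd74: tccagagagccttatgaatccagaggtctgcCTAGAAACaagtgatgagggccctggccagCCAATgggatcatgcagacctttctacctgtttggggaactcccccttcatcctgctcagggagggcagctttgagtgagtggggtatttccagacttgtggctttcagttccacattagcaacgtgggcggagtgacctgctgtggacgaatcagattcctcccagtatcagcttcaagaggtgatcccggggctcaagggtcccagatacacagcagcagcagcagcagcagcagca
RT1-Da: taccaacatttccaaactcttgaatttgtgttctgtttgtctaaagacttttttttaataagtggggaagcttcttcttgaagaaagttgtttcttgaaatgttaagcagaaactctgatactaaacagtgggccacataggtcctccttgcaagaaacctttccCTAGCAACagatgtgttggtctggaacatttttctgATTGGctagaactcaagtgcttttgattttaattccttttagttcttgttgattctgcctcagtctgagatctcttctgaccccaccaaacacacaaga
RT1-Db1: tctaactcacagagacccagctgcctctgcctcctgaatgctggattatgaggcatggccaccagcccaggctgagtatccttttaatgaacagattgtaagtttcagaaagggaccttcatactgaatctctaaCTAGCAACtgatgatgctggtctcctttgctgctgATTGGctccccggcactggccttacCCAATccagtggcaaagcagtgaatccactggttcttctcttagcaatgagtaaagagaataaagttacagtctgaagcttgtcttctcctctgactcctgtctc
RT1-Bb: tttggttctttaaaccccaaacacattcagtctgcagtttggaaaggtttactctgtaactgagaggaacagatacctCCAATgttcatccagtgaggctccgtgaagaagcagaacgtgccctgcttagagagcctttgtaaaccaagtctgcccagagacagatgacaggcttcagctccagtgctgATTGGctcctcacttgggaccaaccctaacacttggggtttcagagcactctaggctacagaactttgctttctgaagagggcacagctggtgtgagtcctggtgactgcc

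CCAAT was held by the windows of all 5 members that had an entry (the 4 above and RT1-Ba) and by 37.5% of 33469 promoters of the same length. CTAGNAAC was held by Cd74, RT1-Da and RT1-Db1, starting at bases 32, 166 and 136 of their windows, and by 3.59% of all promoters. Both motifs together were found in 1.36%. Among 5 other class II genes with an entry, each held CCAAT and RT1-DOb also held CTAGNAAC. The matches describe letters in these windows.

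Levels are given on a log2 scale on which 0 is the mean of an array's probes, after each array's log2 signals were centred on their mean and scaled to a common spread of 4.08. Cd74, RT1-Db1 and RT1-Bb were well above background, by the scanner software's own call, in all 24 animals of both regions. RT1-Da was above it in all 24 hippocampi and in 23 of 24 cortices. One Ciita probe (A_42_P497290) passed in 20 hippocampi and 19 cortices. The RT1-Ba probe (A_44_P128248, NM_001008831) and the second Ciita probe (A_64_P010569) were not well above background in any animal, so neither has a level or a fold here. RT1-Ba therefore stayed unread while RT1-Bb, the beta chain of the same dimer, was read in every animal. The other 5 probes passed the filter of 3 animals above background. They are A_44_P549494 for Cd74 (NM_013069), A_44_P991532 for RT1-Da (NM_001008847), A_64_P130578 for RT1-Db1 (NM_001008884), A_64_P043911 for RT1-Bb (NM_001004084) and the first Ciita probe (NM_053529).

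Over the 56 arrays, 59.3% to 69.7% of probes were well above background. The labelled regions matched their markers: 6 of 7 probes of hippocampal markers were called higher in hippocampus and 6 of 6 of cortical markers higher in cortex. In that comparison 49.7% of 33532 probes were called, 8869 higher in hippocampus and 7803 lower. Of 7 repeat arrays, 6 were averaged with the first array of their animal. The repeat of AI_iTBS 2 cortex was left out, since it correlated with its own first array by 0.072 and with AI_Sham 2 by 0.52. These correlations were over deviations from the mean of all first arrays of the region, so differences between groups remained in them. Its Cd74 level was 2.54 against 1.94 on the first array. Repeats that were averaged lay close together for the members: within an animal the arrays spanned 0.01 to 0.10 for Cd74, 0.01 to 0.26 for RT1-Da and 0.07 to 0.29 for RT1-Db1, and up to 0.86 for Ciita.

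Over sham and iTBS animals together, Cd74, RT1-Da and RT1-Db1, 3 of the 6 members, were higher in the aged hippocampus. RT1-Bb and Ciita were not called and RT1-Ba was not read. In sham animals alone these 3 differences were smaller and none was called (Cd74 1.45, limma adjusted p = 0.56). In hippocampus, Cd74 levels were 4.11, 2.08, 2.18 and 1.79 in Y_Sham and 1.85, 2.04, 1.5 and 0.96 in Y_iTBS. The aged sham levels were 4.33, 3.41, 3.13 and 4.75 in AU_Sham and 4.19, 3.59, 4.57 and 3.96 in AI_Sham. After iTBS they were 4.97, 4.98, 4.30, 2.44 and 4.04 in AU_iTBS and 5.24, 4.17 and 5.03 in AI_iTBS. The ages nearly separated: 10 of 16 aged animals lay above the highest young animal, Y_Sham 1, and 7 of 8 young animals lay below the lowest aged animal, AU_iTBS 4. Averaged over groups, Cd74 was 4.24 in aged and 2.06 in young hippocampus, a difference of 2.17 (SE 0.33, 4.51-fold, limma adjusted p = 0.00223), which ranked 23 by p among 32296 probes. At this comparison 177 probes, 0.548%, were called at adjusted p under 0.05, against 3 of the 5 member probes. All 3 were higher in aged rats. The median difference was 0.94 over the 5 member probes and -0.01 over all probes. Since the members were chosen with earlier results of these data known, these shares and medians describe the set and do not test it.

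RT1-Da, the alpha chain of the D pair, showed the same layout of young and aged animals. In hippocampus it was 1.95, 0.14, 0.22 and -0.23 in Y_Sham and 0.01, -0.35, -0.76 and -1.51 in Y_iTBS. It was 2.69, 1.14, 0.80 and 1.64 in AU_Sham and 2.16, 1.27, 2.46 and 1.81 in AI_Sham. It was 2.95, 3.28, 2.56, 0.32 and 1.93 in AU_iTBS and 3.55, 1.87 and 2.65 in AI_iTBS. Of the aged animals, 8 of 16 lay above the highest young one, and again 7 of 8 young animals lay below the lowest aged one. The age difference was 2.16 (SE 0.36, 4.48-fold, limma adjusted p = 0.00549).

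RT1-Db1, the beta chain that joins RT1-Da, rose less. In hippocampus its levels were 1.79, 0.91, 0.72 and 0.78 in Y_Sham and 0.74, 0.68, 0.56 and 0.62 in Y_iTBS. They were 2.21, 1.14, 1.01 and 1.59 in AU_Sham and 1.82, 1.31, 2.04 and 1.57 in AI_Sham. They were 2.36, 2.55, 2.04, 0.97 and 1.70 in AU_iTBS and 2.60, 1.54 and 2.07 in AI_iTBS. The 4 Y_iTBS animals formed the tightest group, with an SD of 0.08. The age difference was 0.94 (SE 0.20, 1.92-fold, limma adjusted p = 0.033), and it was called in 14 of 24 fits that each left out 1 animal. The 10 animals without which it was not called were Y_Sham 2, 3 and 4, Y_iTBS 2, 3 and 4, AI_Sham 1 and 3, and AI_iTBS 1 and 3, with adjusted p between 0.051 and 0.0881. Cd74 and RT1-Da were called in all 24.

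RT1-Bb turned on 1 array. In hippocampus its level was 0.71, -0.23, -0.87 and -0.92 in Y_Sham, but -1.10, 8.22, -1.18 and -1.38 in Y_iTBS, where animal 2 stood at 8.22. The spot was neither saturated nor marked as an outlier by the scanner software, the animal has 1 hippocampal array, and the next highest of the 24 animals was at 1.92. Aged animals ran from -0.88 to 1.92 with a median of 0.67, against a median of -0.90 in young animals. With every animal the age difference was 0.18 (SE 0.85, limma adjusted p = 0.942). Without Y_iTBS 2 it was 1.36 (SE 0.33, limma adjusted p = 0.0873), which also missed the threshold.

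Ciita had hippocampal levels from -3.39 to -1.92 in young and -2.93 to -1.39 in aged animals. The ranges overlapped, with 5 of 16 aged animals above the highest young one. Its age difference was 0.47 (SE 0.19, 1.39-fold, limma adjusted p = 0.31) and was not called.

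**Figure D1:**
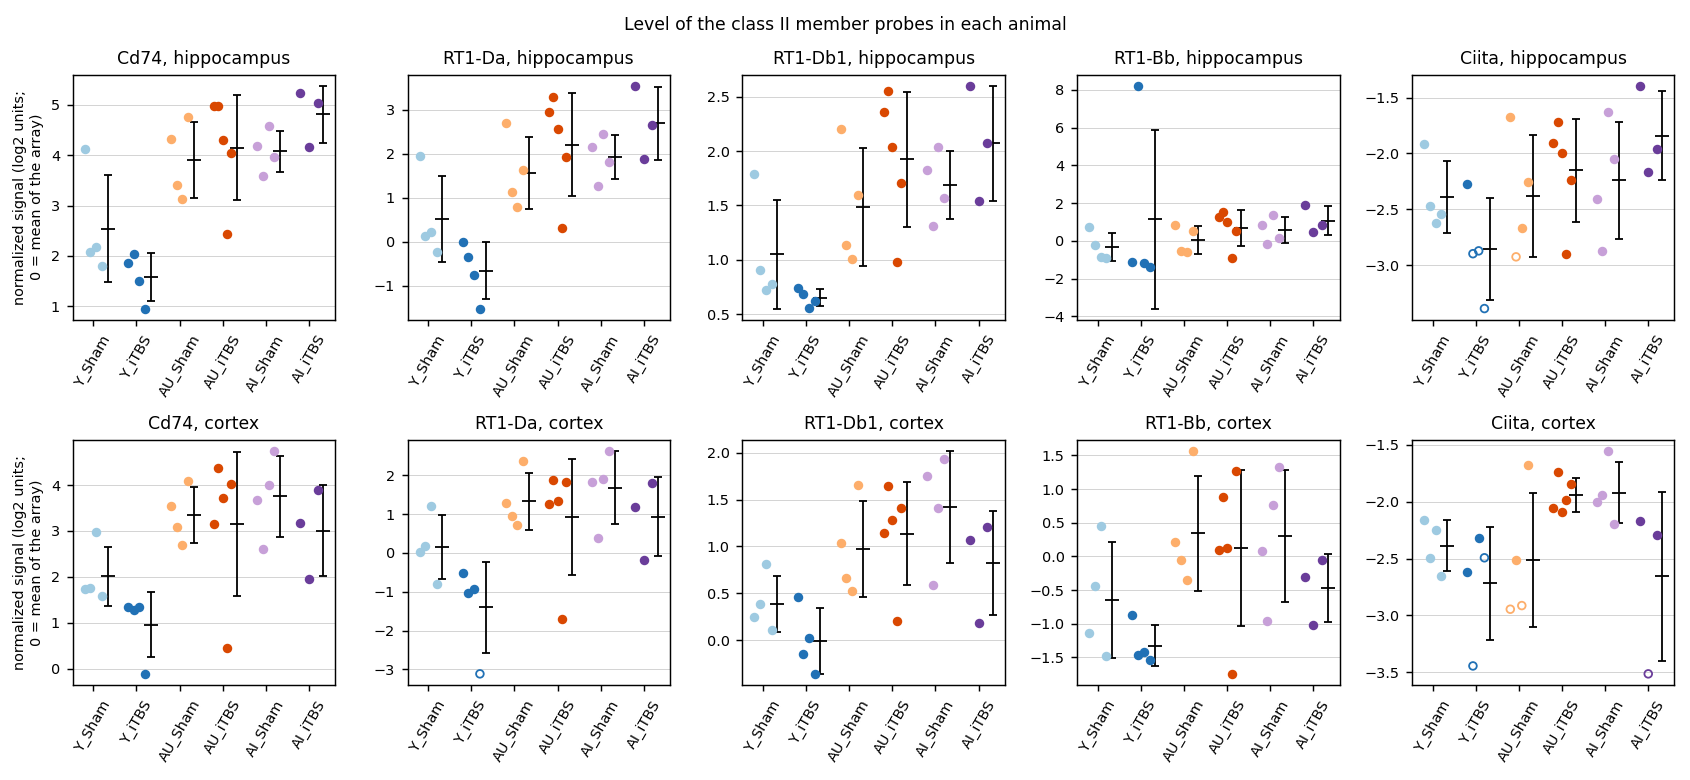
Level of the 5 tested member probes in each animal (log2 units, 0 is the mean of the array), hippocampus above and cortex below, with 1 point per animal, open where the probe was not well above background, and bars for group mean ± SD. Cd74, RT1-Da and RT1-Db1 sit higher in the 4 aged groups, and a single Y_iTBS hippocampus stands at 8.22 for RT1-Bb.

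The cortex showed age differences of like size in which none of the 5 probes was called. In cortex, Cd74 levels were 1.73, 1.76, 2.97 and 1.58 in Y_Sham and 1.34, 1.27, 1.34 and -0.11 in Y_iTBS. They were 3.55, 3.09, 2.68 and 4.10 in AU_Sham and 3.68, 2.60, 3.99 and 4.74 in AI_Sham. They were 3.15, 4.37, 3.73, 0.46 and 4.02 in AU_iTBS and 3.18, 1.94 and 3.90 in AI_iTBS. More aged animals lay above the young range than in hippocampus (12 of 16), but AU_iTBS 4, at 0.46, lay below 7 of the 8 young animals. The age difference of Cd74 was 1.83 (SE 0.41, 3.56-fold, limma adjusted p = 0.0516). In this comparison 135 of 32423 probes, 0.416%, were called, and 4 of the 5 member probes had an unadjusted p under 0.05.

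RT1-Da in cortex was 0.03, 0.18, 1.22 and -0.79 in Y_Sham and -0.51, -1.04, -0.93 and -3.11 in Y_iTBS. It was 1.28, 0.94, 0.71 and 2.37 in AU_Sham and 1.84, 0.37, 1.91 and 2.61 in AI_Sham. It was 1.25, 1.87, 1.33, -1.71 and 1.84 in AU_iTBS and 1.19, -0.18 and 1.80 in AI_iTBS. The lowest animal of each age stood far below its group, Y_iTBS 4 at -3.11, where the probe was not well above background, and AU_iTBS 4 at -1.71. The age difference was 1.83 (SE 0.45, 3.57-fold, limma adjusted p = 0.088).

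RT1-Db1 in cortex was 0.25, 0.39, 0.81 and 0.11 in Y_Sham and 0.47, -0.15, 0.02 and -0.36 in Y_iTBS. It was 1.04, 0.67, 0.52 and 1.66 in AU_Sham and 1.75, 0.59, 1.41 and 1.94 in AI_Sham. It was 1.14, 1.65, 1.28, 0.20 and 1.41 in AU_iTBS and 1.07, 0.18 and 1.21 in AI_iTBS. Here 11 of 16 aged animals lay above the highest young one. The age difference was 0.90 (SE 0.20, limma adjusted p = 0.0616). RT1-Bb ran from -1.54 to 0.46 in young and from -1.74 to 1.56 in aged cortex and differed by 1.06 (SE 0.35, limma adjusted p = 0.227). Ciita differed by 0.29 (SE 0.18, limma adjusted p = 0.447).

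The cortical result sat at the threshold and single animals carried it across. Without AU_iTBS 4, AI_Sham 2 or AI_iTBS 2, Cd74, RT1-Da and RT1-Db1 were all called, and without AU_iTBS 4 the Cd74 difference was 2.00 (limma adjusted p = 0.00202). Without Y_Sham 3, Cd74 alone was called (1.99, limma adjusted p = 0.0476). In a fit with scan day as a fixed term, Cd74 (adjusted p = 0.0474) and RT1-Db1 (adjusted p = 0.0411) were called. AU_iTBS 4 had 2 cortical arrays, which read 0.47 and 0.44 for Cd74, and was also the lowest aged animal in hippocampus.

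The arrays were scanned on different days, and the first day and the later days each held animals of all 6 groups. Among the 15 animals scanned on the first day, the hippocampal age difference of Cd74 was 2.17 (SE 0.35, limma adjusted p = 0.0731), and among the 9 scanned later it was 2.15 (SE 0.52, limma adjusted p = 0.322). For RT1-Da these values were 2.05 and 2.30, and for RT1-Db1 0.82 and 1.19. In cortex, Cd74 differed by 1.5 (SE 0.62) among animals of the first day and by 2.00 (SE 0.30) among later ones. The differences held their direction in both subsets, and with fewer animals none was called.

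**Figure D2:**
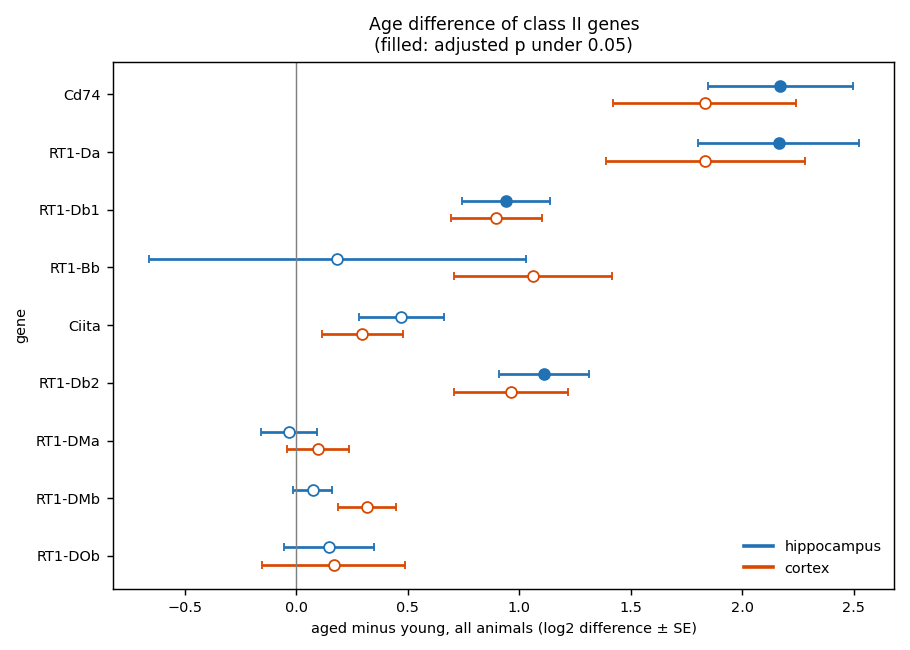
Aged minus young difference (log2, point ± SE), over sham and iTBS animals together, of the 5 tested member probes and of 4 other class II genes, for hippocampus and cortex, filled where limma's adjusted p was under 0.05. In hippocampus Cd74 (2.17), RT1-Da (2.16), RT1-Db1 (0.94) and RT1-Db2 (1.11) are filled, while RT1-DMa, RT1-DMb and RT1-DOb lie near 0, and no cortical point is filled.

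In sham animals alone the age differences were smaller in hippocampus. The Cd74 difference was 1.45 (SE 0.46) in hippocampus, at a limma adjusted p of 0.56, and 1.55 (SE 0.58) in cortex, at 0.437. RT1-Da differed by 1.23 and 1.35, and RT1-Db1 by 0.53 and 0.81, in hippocampus and cortex. No member probe was called by limma in either region, where 0.0031% and 0.105% of all probes were called. At an unadjusted p under 0.05 stood 2 of 5 member probes in hippocampus and 3 of 5 in cortex, and all 5 differences were above 0 in both regions. The selection rule of the study's methods adds cutoffs on the z-ratio and on brightness and allows a false discovery rate of 0.3. It was rerun here from its description, and the rerun does not return all the calls that the study printed. As rerun, it called Cd74 and RT1-Da in both regions, against 0.119% of probes in hippocampus and 0.278% in cortex. Over all animals that rule called Cd74, RT1-Da and RT1-Db1 in hippocampus (0.296% of probes) and Cd74 in cortex (0.471%). Age and the age-set sedative dose cannot be told apart in these comparisons.

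No difference between impaired and unimpaired rats was detectable. AI_Sham against AU_Sham gave no member call by limma in either region, where 0% of probes were called, and no member probe had an unadjusted p under 0.05. The smallest was 0.539 in hippocampus, with all 5 differences above 0, and 0.0589 in cortex, with 4 of 5 above 0. Ordered by mean, hippocampal Cd74 ran from Y_iTBS (1.59 ± 0.48, SD, n = 4) and Y_Sham (2.54 ± 1.06, n = 4) through AU_Sham (3.91 ± 0.76, n = 4), AI_Sham (4.08 ± 0.41, n = 4) and AU_iTBS (4.15 ± 1.04, n = 5) to AI_iTBS (4.81 ± 0.57, n = 3). RT1-Da and RT1-Db1 kept this order of the 6 groups in hippocampus. The ranges of every pair of neighbours overlapped for these 3 genes. In cortex the order of Cd74 was Y_iTBS, Y_Sham, AI_iTBS, AU_iTBS, AU_Sham and AI_Sham. There only the 2 young groups, the lowest neighbours, had ranges apart, from -0.11 to 1.34 in Y_iTBS and from 1.58 to 2.97 in Y_Sham.

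After iTBS no member probe was called by limma in any comparison with sham, where 0% of all probes were called in either region. In young hippocampus 4 of 5 member probes were lower after iTBS and none had an unadjusted p under 0.05, the exception in direction being RT1-Bb with its 1 high array. Cd74 differed by -0.96 (SE 0.53) and RT1-Da by -1.17 (SE 0.59). These values leaned on Y_Sham 1, the highest young hippocampus, without which they were -0.43 and -0.69. In young cortex all 5 were lower. RT1-Da, at -1.56 (SE 0.72, limma adjusted p = 1), was the only member with an unadjusted p under 0.05, and it was -0.99 without Y_iTBS 4. In the cortex of Y_iTBS 4, RT1-Da was at -3.11 and not well above background. Within the first scan day the young differences were -0.49 for Cd74 and -0.87 for RT1-Da in hippocampus and -1.44 and -1.91 in cortex. The methods' selection rule, as rerun here, called Cd74 in young cortex, where it called 0.0553% of probes.

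In aged rats the differences, none of them called, lay on opposite sides of 0 in hippocampus and cortex. With AU and AI weighted equally, all 5 probes were higher after iTBS in hippocampus, with a median of 0.49 and unadjusted p from 0.089 to 0.579, and all 5 were lower in cortex, with a median of -0.48 and unadjusted p from 0.25 to 0.7. The rerun of the methods' rule, which does not return all of the study's own calls, called no member in aged rats after iTBS. Hippocampal RT1-Da differed by 0.70 (SE 0.42), Cd74 by 0.49 (SE 0.38) and RT1-Db1 by 0.41 (SE 0.23). Within the first scan day these were 0.17, 0.02 and 0.13, against -1.05, -0.95 and -0.38 in cortex. By cognitive status, all 5 probes were above 0 in AU and in AI hippocampus, 5 of 5 below 0 in AI cortex and 3 of 5 below 0 in AU cortex. Again 0% of probes were called, and at an unadjusted p under 0.05 stood 1 member probe, Ciita in AI cortex (-0.73, SE 0.32). That value leaned on AI_iTBS 2, at -3.51 and not well above background, where the other AI_iTBS animals were at -2.17 and -2.29 and AI_Sham ran from -2.19 to -1.55. The repeat array labelled as that cortex, which was left out, read -2.27 and was well above background.

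The aged iTBS effect minus the young one tests whether stimulation acted alike at both ages. In hippocampus this difference was 1.88 for RT1-Da (SE 0.72, limma adjusted p = 0.799) and 1.44 for Cd74 (SE 0.65, limma adjusted p = 0.799), and in 0% of probes was it called. The young sham animals enter both this comparison and the young iTBS effect. Without Y_Sham 1 the values were 1.40 and 0.92, and within the first scan day 1.04 and 0.51. In cortex RT1-Da differed by 0.98 (SE 0.89) and no member had an unadjusted p under 0.05.

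**Figure D3:**
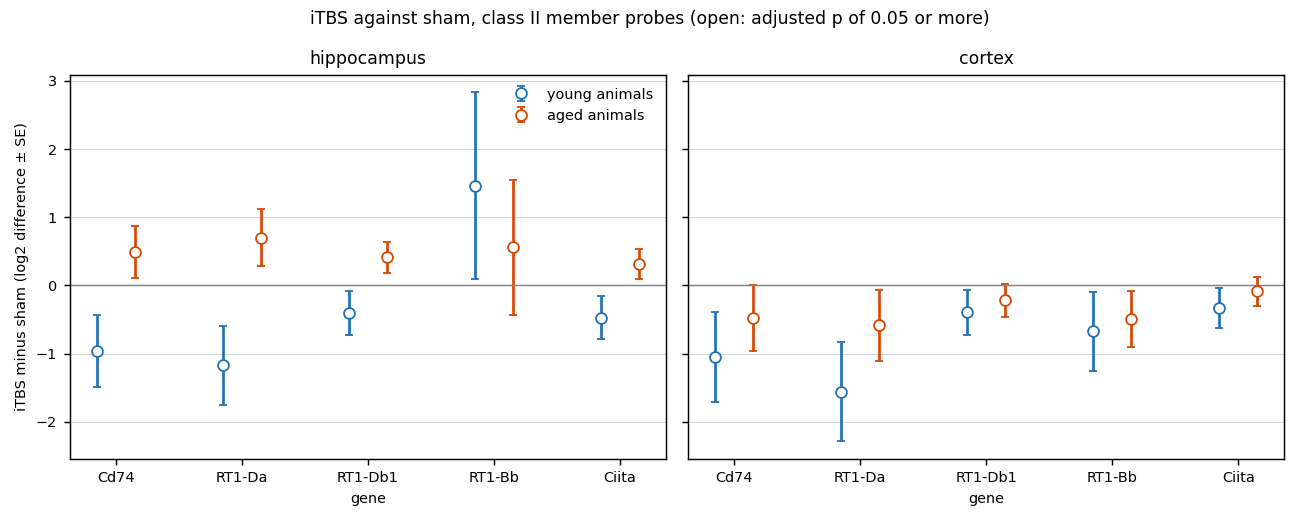
iTBS minus sham difference (log2, point ± SE) of the 5 tested member probes in young and in aged animals, hippocampus left and cortex right, open since none reached an adjusted p under 0.05. In cortex every point lies below 0, and in hippocampus the aged points lie above 0 and the young points below 0 except for RT1-Bb.

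Hippocampus and cortex of the same animals differed for much of the array, with 49.7% of 33532 probes called, so the 3 of 5 member probes called between regions are near the background. Cd74 was higher in the hippocampus of 22 of 24 animals by a mean of 0.81 (SE 0.16, limma adjusted p = 0.000198), RT1-Da in 20 of 24 by 0.77 (SE 0.17, limma adjusted p = 0.000619) and RT1-Db1 in 21 of 24 by 0.69 (SE 0.09, limma adjusted p = 3.11e-06). RT1-Bb was higher in 17 of 24 by 0.81 (SE 0.41, limma adjusted p = 0.113), or by 0.40 without Y_iTBS 2, and Ciita in 14 of 24 by 0.05 (SE 0.11). Among animals of the first scan day the 3 differences were 0.63, 0.53 (limma adjusted p = 0.0532, not called) and 0.56, and among later animals 1.03, 1.17 and 0.84. The later cortices were scanned on scan day 2 and the later hippocampi on scan day 3, except for 1 AU_iTBS hippocampus on scan day 2. Region and scan day therefore cannot be told apart among the later animals. The median difference was 0.77 over the 5 member probes against 0.02 over all probes.

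The lead of the hippocampus in Cd74 had its highest means in stimulated aged animals, 1.80 ± 0.59 (SD, n = 3) in AI_iTBS and 1.00 ± 0.86 (n = 5) in AU_iTBS. For Cd74, hippocampus minus cortex was 1.82, 0.61, 0.58, 1.99 and 0.02 in AU_iTBS and 2.06, 2.22 and 1.13 in AI_iTBS, all above 0. In AU_Sham it was 0.77, 0.32, 0.45 and 0.66, and in AI_Sham 0.50, 0.99, 0.58 and -0.78. The AI_iTBS animals all lay above the sham aged animals, while the AU_iTBS animals overlapped with them. The value of 2.22 belongs to AI_iTBS 2, whose cortex was read from its first array alone (Cd74 1.94, against 2.54 on the repeat left out). Among young rats Cd74 differed by 2.39, 0.32, -0.79 and 0.21 in Y_Sham and 0.52, 0.76, 0.16 and 1.07 in Y_iTBS. For RT1-Da and RT1-Db1 too the hippocampus was higher in 5 of 5 AU_iTBS and 3 of 3 AI_iTBS animals, against 3 of 4 in AU_Sham and in AI_Sham. The same held for 4 of 4 Y_iTBS animals for both genes, against 2 of 4 Y_Sham animals for RT1-Da and 3 of 4 for RT1-Db1.

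The test of that contrast, the aged iTBS effect in hippocampus minus the one in cortex, gave 1.28 for RT1-Da (SE 0.41, rank 65 by p of 33532 probes), 0.63 for RT1-Db1 (SE 0.23) and 0.97 for Cd74 (SE 0.38), each with a limma adjusted p of 1 and an unadjusted p under 0.05. No probe on the array was called (0%). RT1-Bb (1.05, SE 1.02) and Ciita (0.40, SE 0.28) were above 0 without an unadjusted p under 0.05. Leaving out single animals moved the RT1-Da value between 1.11 and 1.51. In young rats the same contrast gave no call (0% of probes) and no member with an unadjusted p under 0.05.

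**Figure D4:**
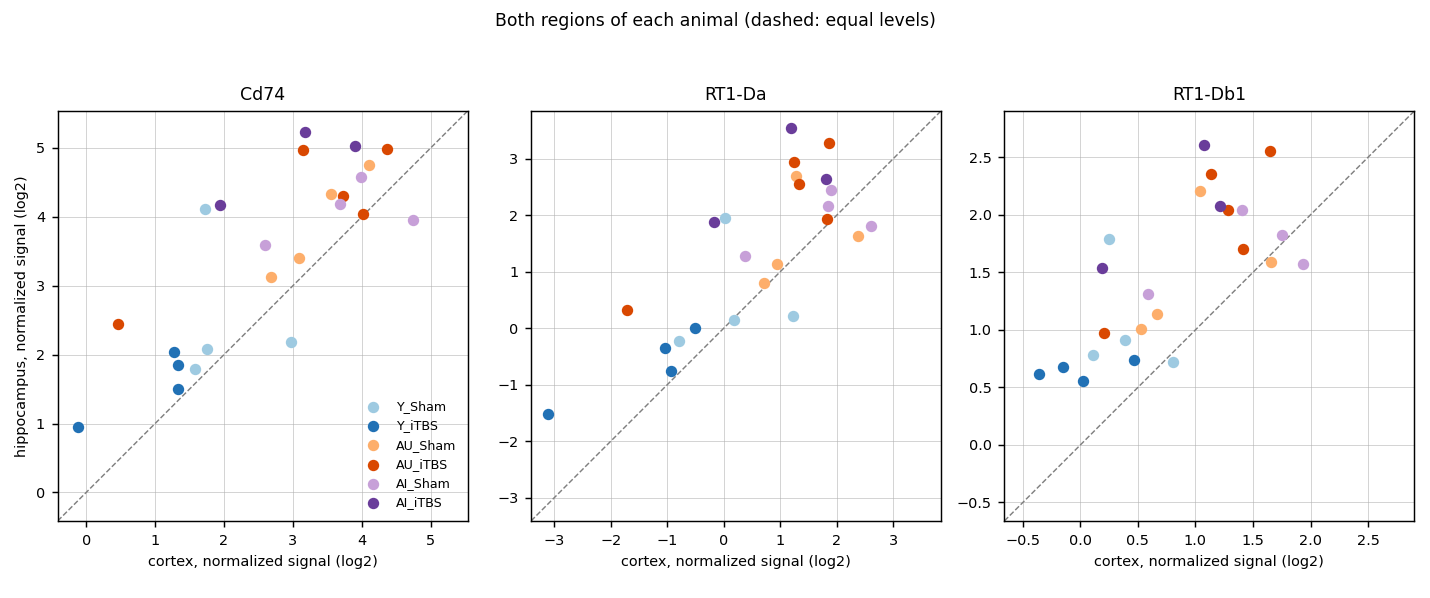
Level in hippocampus against level in cortex (both log2) for Cd74, RT1-Da and RT1-Db1, with 1 point per animal coloured by group and a dashed line of equal levels. Most animals lie above the line (22, 20 and 21 of 24), and animals high in one region tend to be high in the other.

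An animal's class II level was shared between its regions. Over the 24 animals the Pearson r between hippocampus and cortex was 0.795 for Cd74, 0.773 for RT1-Da and 0.708 for RT1-Db1 (Spearman rho 0.76, 0.69 and 0.708). Permuting animals within their groups, so that group means gave no support, the adjusted p over the 5 probes was 0.0268, 0.0268 and 0.028 for r and 0.0422 for each rho. Because age moved both levels, r is also given within each age: 0.469, 0.687 and 0.197 among 8 young and 0.641, 0.53 and 0.518 among 16 aged animals, for Cd74, RT1-Da and RT1-Db1. On deviations from the group means r was 0.632, 0.645 and 0.536 (permutation adjusted p = 0.0268, 0.0268 and 0.038), while for rho each adjusted p was 0.0568. Leaving out the 2 animals farthest from the hippocampal median gave 0.724, 0.669 and 0.702. Among animals of the first scan day r was 0.819, 0.83 and 0.773, and among later ones 0.77, 0.797 and 0.638. Ciita (r = 0.273, permutation adjusted p = 0.267) and RT1-Bb (r = 0.034, permutation adjusted p = 0.782) showed no such relation, and RT1-Bb reached 0.488 without its 2 farthest animals, Y_iTBS 2 among them.

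Cd74, RT1-Da and RT1-Db1 also varied together within a region. On deviations from the group means over 24 animals, hippocampal Cd74 correlated with RT1-Da by 0.931 and with RT1-Db1 by 0.895, which ranked 1 and 2 of the 32295 other probes tested, and with Ciita by 0.788 (rank 5) and RT1-Bb by 0.462. In cortex the values were 0.964 for RT1-Da (rank 1 of 32422), 0.90 for RT1-Db1 (rank 7), 0.887 for RT1-Bb (rank 14) and 0.291 for Ciita (rank 9217). The pairing with Ciita was thus high in hippocampus and low in cortex, a difference that was not tested. Outside the members, the 6 genes most like Cd74 in hippocampus were RT1-Db2, a second RT1-D beta chain (0.803), Slpi (0.783), Sox9 (0.783), Rab11fip1 (0.773), Tp63 (0.771) and Cd164 (0.756). In cortex they were Fxyd2 (0.922), the smooth muscle gene Tagln (0.907), the interferon-induced Ifitm3 (0.90), Vim, an intermediate filament (0.896), S100a11 (0.892) and RT1-Db2 (0.89). RT1-Db2 was the one gene on both lists. These are descriptions over animals that share arrays and normalization within a region.

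The rest of the pathway moved less with age. Of a list of 43 class II pathway genes, 35 had a tested probe in each region. In hippocampus 2 of their 46 probes were called higher in aged rats and none lower, against 0.548% of all probes called, and in cortex none was called, against 0.416%, with 29 and 33 of 46 differences above 0. The 2 were RT1-Db2, which differed by 1.11 (SE 0.20, limma adjusted p = 0.0114), and Ctss, the protease cathepsin S that trims the invariant chain, which differed by 0.38 (SE 0.08, limma adjusted p = 0.0238). RT1-Db1 and RT1-Db2 are close relatives, and whether their probes read each other's transcript was not tested. The median over the list was 0.06 in hippocampus and 0.11 in cortex.

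The peptide exchange factors lay near 0 in the age comparison of the hippocampus. RT1-DMa, at 4.43 in aged and 4.46 in young hippocampus, differed by -0.03 (SE 0.13), and RT1-DMb by 0.07 (SE 0.09). RT1-DOb, which restrains the exchange, differed by 0.14 (SE 0.20) and was above background in 14 of 24 hippocampi. RT1-DOa and RT1-Ha were above background in at most 3 animals of a region. In cortex RT1-DMa differed by 0.10 and RT1-DMb by 0.32 (SE 0.13, limma adjusted p = 0.296). Of the regulators, Irf1 in hippocampus (0.20, limma adjusted p = 0.319) and Rfxank in cortex (0.28, limma adjusted p = 0.192) had the smallest p of their list and were not called. Marchf1, the ubiquitin ligase that turns over surface class II, differed by -0.26 on one probe in hippocampus (limma adjusted p = 0.151, and -0.12 on the other of its smallest p) and by -0.39 in cortex (limma adjusted p = 0.169). Between regions, 13 of 47 list probes were called higher in hippocampus and 3 lower, a smaller share than the 49.7% of all probes. Those higher included RT1-Db2 (0.72), RT1-DMa (0.64), RT1-DMb (0.22) and the co-stimulatory Cd86 (0.80) and Cd40 (0.57).

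Markers of the cells that can carry class II were read beside these results. By age, 0.548% of all probes were called in hippocampus and 0.416% in cortex. Of 12 microglial probes (10 of 11 listed genes), 2 were called higher in aged hippocampus and none in cortex. Trem2 differed by 0.49 (SE 0.06, limma adjusted p = 0.000664) and Itgam by 0.49 (SE 0.11, limma adjusted p = 0.0488). The other Itgam probe, at 0.44 (SE 0.19, limma adjusted p = 0.343), was not called. The summed level of the microglial list ran from 8.86 to 9.03 in young and from 8.85 to 9.63 in aged hippocampus, and from 8.83 to 9.54 and 8.74 to 9.49 in cortex. Of 6 border macrophage probes (6 of 7 genes), Clec10a was called in aged hippocampus (0.42, SE 0.09, limma adjusted p = 0.033) and none in cortex. That list summed to 2.61 to 2.99 in young and 2.65 to 3.65 in aged hippocampus, and to 2.03 to 3.46 and 1.83 to 3.79 in cortex. The shifts of these lists with age were smaller than those of Cd74 and RT1-Da, and their part in the result was not tested.

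Of the dendritic cell list, Clec9a and Xcr1 were above background in at most 1 animal of a region, and 2 of 8 genes in hippocampus and 3 in cortex were tested. The T cell markers Cd3d and Cd3g were read in both regions, Cd3e in hippocampus only, while Cd2, Cd5 and Cd8a were not above background in any animal. None of these probes was called with age. Their summed levels overlapped between ages: 2.07 to 2.66 in young and 1.85 to 2.66 in aged hippocampus for dendritic cells, and 1.58 to 2.29 and 1.13 to 2.38 for T cells. In cortex the ranges were 2.68 to 3.00 and 2.43 to 2.99, and 0.28 to 1.61 and 0.54 to 1.27. Cd3e was above background in 24 hippocampi and in 1 cortex.

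The choroid plexus bears class II macrophages and lies against the hippocampus. All 6 of its marker genes were tested in hippocampus, and 6 of 7 probes were called higher there than in cortex, where 49.7% of all probes were called between regions. Otx2 differed by 2.93 (SE 0.30) and Ttr by 1.83 (SE 0.41), while Clic6 and Kl were above background in 1 cortex each and were tested only through the hippocampus. Its summed level ran from 4.98 to 9.02 in young and from 5.20 to 11.11 in aged hippocampus, and none of its 7 probes was called with age. Y_Sham 1, the young hippocampus with the most Cd74, also had the highest young choroid level (9.02), and AU_iTBS 4, the aged one with the least, had the lowest aged level (5.20). The match was not general: AU_Sham 1, the next lowest aged animal at 5.30, had Cd74 at 4.33. Y_iTBS 3, the lowest of all at 4.98, was also low in Cd74, at 1.5, above only Y_iTBS 4 (0.96). On deviations from group means, hippocampal Cd74 correlated with the choroid list by 0.588 (permutation adjusted p = 0.0581, 24 relations of Cd74 with marker lists, both regions). In cortex the border macrophage list gave 0.702 (permutation adjusted p = 0.0358, rho 0.72) and the T cell list, of 2 genes, 0.534 (permutation adjusted p = 0.0358, rho 0.669). In the other region the values were 0.094 for border macrophages and 0.187 for T cells in hippocampus and 0.079 for the choroid list in cortex. Within the first scan day the border macrophage and T cell values in cortex were 0.856 and 0.615, and among later animals 0.144 and 0.055, so neither was of like size in both subsets. The microglial list gave 0.367 in hippocampus and -0.158 in cortex. The list of hippocampal markers gave -0.572 in cortex (permutation adjusted p = 0.055), a size near that of the choroid relation, and 0.094 in hippocampus. Not all 24 relations are printed. How far the cells of any list account for the Cd74 levels was not tested.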

How the data were processed

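RNA from the hippocampus and parietal cortex of 24 rats was hybridised to 56 one-colour Agilent rat arrays and read with Feature Extraction 12.0.3.1. The deposited scanner files hold spot intensity, background-subtracted by that software, and the authors' deposited score for each probe lies within 0.005 of the z-score of log signal. Here log2 of the deposited processed intensity was turned to z-scores over the 45598 non-control probes of each array, which were then rescaled to the arrays' average SD of 4.08 log2 units. Spots marked as outliers (267 to 1448 per array) were dropped, and copies of a probe and repeat arrays were averaged, except for 1 repeat that did not match its animal. Probes well above background in at least 3 animals were tested in limma 3.58.1 (R 4.3.3, the data.table package, version 1.17.8) with 6 group means per region and 18 residual degrees of freedom, and called at a Benjamini-Hochberg adjusted p under 0.05 over all tested probes. Regions were compared by within-animal differences. An aged or young mean is the mean of its group means. Each rat is 1 sample.

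Correlations used 1e+05 two-sided permutations within groups. Symbols came from RefSeq, which named 46.3% of probes. The members and lists were chosen with earlier results of these data known. Every member probe is named. Of the other lists, called probes are named (at most 6 per list by smallest p), or else the 2 of smallest p, as are the 6 genes most like Cd74, and a few further class II chains that were added to show the whole complex. Columns of per-sample values left unused numbered 0. Replicate numbers were not taken to pair animals across groups. Animals of the same number correlated by a mean of 0.072 in hippocampus and 0.092 in cortex, against -0.021 and -0.027 for animals of other numbers. In hippocampus 8 of 24 animals, and in cortex 9 of 24, correlated best with an animal of their own number. On simulated data, the hippocampal age comparison (32060 probes) recovered 86% of changes of 1 log2 unit and 96% of 2, and the cortical one (32171 probes) 70% and 97%. The changes were put on randomly drawn probes, with normal noise of each probe's own spread and no outlying animals. These shares are thus not the recovery for the member probes, which was not simulated. Other scalings, background correction, filters, tests, batch terms, repeats and single animals left out were tried as alternatives. The number of arrays limits the precision. One array with conflicting labels entered no comparison. Some list genes are not reported here.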

Additional observations from a re-analysis of the deposited data

Results flagged for a closer look

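In groups of 4 or 5 animals, 5 of 50 member levels had an animal far from the others of its group, where chance gives about 1 in 20. Cd74 in the cortex of Y_Sham 3 was 2.97 against 1.76 in the next animal, and the 3 arrays of that cortex read 2.96 to 2.97. Cd74 in the cortex of Y_iTBS 4 was -0.11, with the next at 1.27. Cd74 in the hippocampus of Y_Sham 1 was 4.11, with the next at 2.18. RT1-Bb in the hippocampus of Y_iTBS 2 was 8.22, with the next at -1.10. RT1-Da in the cortex of AU_iTBS 4 was -1.71, with the next at 1.25.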

How the results depend on the processing

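Over 778 results recomputed under another setting, 749 kept their direction and side of the threshold, as did 1407 of 1440 with 1 animal left out. The number of member probes called with age over all animals in cortex, 0 as reported, was 2 under 75th percentile scaling, quantile normalization, all repeats as labelled and scan day as a fixed term, 1 under eBayes with a trend and robust variances and under the methods' selection rule, and 0 to 3 with 1 animal left out. That in hippocampus, 3 as reported, was 0 within the first scan day and 0 within the later scan days (chosen after seeing the data), where fewer animals were fitted, and 2 to 3 with 1 animal left out. The methods' rule, as rerun here, gave 2 in sham animals by age in each region and 1 in young cortex after iTBS. Between regions 5 were called among the later scans. With normexp background correction RT1-Db1 in hippocampus differed with age by 0.83 (limma adjusted p = 0.0601).

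Direction turned only for values that were not called. RT1-Bb in hippocampus by age was -0.12 with normexp and -0.32 within the first scan day. Ciita in cortex after aged iTBS was 0.021 with all repeats. With slide as a random block the aged minus young iTBS effect in cortex was -0.14 for Cd74, -0.39 for RT1-Bb and -0.14 for RT1-Db1. Ciita between regions was -0.0456 under 75th percentile scaling, -0.0282 under quantile normalization, -0.14 with scan day as a fixed term and -0.13 within the first scan day. With 1 animal left out, RT1-Bb in hippocampus ran from -0.90 to 2.30 for young iTBS, from -1.75 to 1.45 for the aged minus young iTBS effect and from -0.24 to 1.36 for age. Ciita ran from -0.0395 to 0.24 in sham hippocampus by age, from -0.21 to 0.13 in cortex after aged iTBS and from -0.0157 to 0.0897 between regions, and RT1-Bb from -0.18 to 0.46 for the aged minus young iTBS effect in cortex. Apart from the shorter scan subsets, the cause was not tested. With the replicate number as a block, 3 member probes were called by age in hippocampus and 0 in each other comparison within a region, and without the animal pairing 3 were called between regions, so the pairing changed no count.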

Other observations

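One array entered no comparison because its title names a young sham animal and its description an AU_iTBS hippocampus. Its levels were 2.43 for Cd74, 0.28 for RT1-Da, 0.98 for RT1-Db1, -0.77 for RT1-Bb and -2.55 for Ciita. Over all tested probes it correlated best with the hippocampus of AU_iTBS 4 (0.575) and next with that of Y_Sham 4 (0.198).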
